A study of Mus musculus with 9 samples.

Results

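The comparison described here set OB-6 cells after 60 min of parathyroid hormone (PTH) against the same cells at 0 min, the start of treatment. It took the 3 arrays titled as 60 min of PTH and the 3 titled as 0 min, 6 of the 9 arrays of the series, and covered every probe set on them that was not a control. OB-6 is a mouse osteoblastic line, and total RNA was hybridised to 1-colour short-oligonucleotide arrays. The remaining 3 arrays, taken after 30 min of PTH, are given beside the others where they bear on a gene. All 9 arrays came from OB-6 cells, those at 0 min from the start of PTH treatment. The labels set the groups apart only by treatment time. The labels name 3 replicates, a, b and c, at each time, give no dose of PTH, no culture conditions and no array of cells handled for 60 min without the hormone, and do not say whether the replicates were separate cultures. The p-values therefore speak only of how far these arrays differ, which can be technical. A change over 60 min of PTH and a change over 60 min of handling cannot be told apart.

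PTH binds a G-protein-coupled receptor on osteoblasts, and the receptor acts through the stimulatory G protein and adenylyl cyclase to raise cAMP. Protein kinase A then phosphorylates transcription factors such as CREB, which bind cAMP response elements and switch on immediate-early genes without new protein synthesis. In bone, the immediate-early response to PTH is known for AP-1 and Nr4a factors, and is followed by changes in secreted factors that act on bone-forming and bone-resorbing cells.

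Of 8251 genes on the array, 5936 passed the filter on low intensity and were tested. Each gene was represented by its brightest tested probe set. Changes are differences of log2(intensity + 11.8), 60 min minus 0 min, and a gene is called higher or lower at an adjusted p under 0.05 in limma. Folds are ratios of intensity + 11.8, so for dim genes they understate the change in the printed intensities. After 60 min 273 genes were higher, 4.6% of those tested, and 540 were lower, 9.1%. Among all 7884 tested probe sets these shares were 4.35% higher and 8.73% lower. Scaling the arrays to their 75th percentile instead gave 400 genes higher and 510 lower. The 3 arrays at 60 min lay wholly above the 3 at 0 min for 1279 genes, 21.5% of those tested, and wholly below for 1244 genes, 21%. Such separation held for 272 of the 273 genes called higher and for all 540 called lower. The lack of overlap given below for called genes therefore adds little to their calls.

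The genes called higher had smaller changes than those called lower, and brighter probe sets by the mean intensity over all arrays. That mean includes the arrays after treatment, so the changes themselves raise it for higher genes and lower it for lower genes. The higher genes had a median change of 0.55, a 1.46-fold rise, a median intensity of 745, and 21 of them rose by more than 1 on the log2 scale. The lower genes had a median change of -1.04, to 0.487 of the level at 0 min. Their median intensity, again over all arrays, was 231, and 288 of them fell by more than 1. Over all tested genes the median change was 0.04 and the median intensity 240. Levels at 0 min ran the other way in the genes whose calls held whichever array was left out. Their median at 0 min was 255 for the 24 higher genes and 416 for the 33 lower genes.

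**Figure D1:**
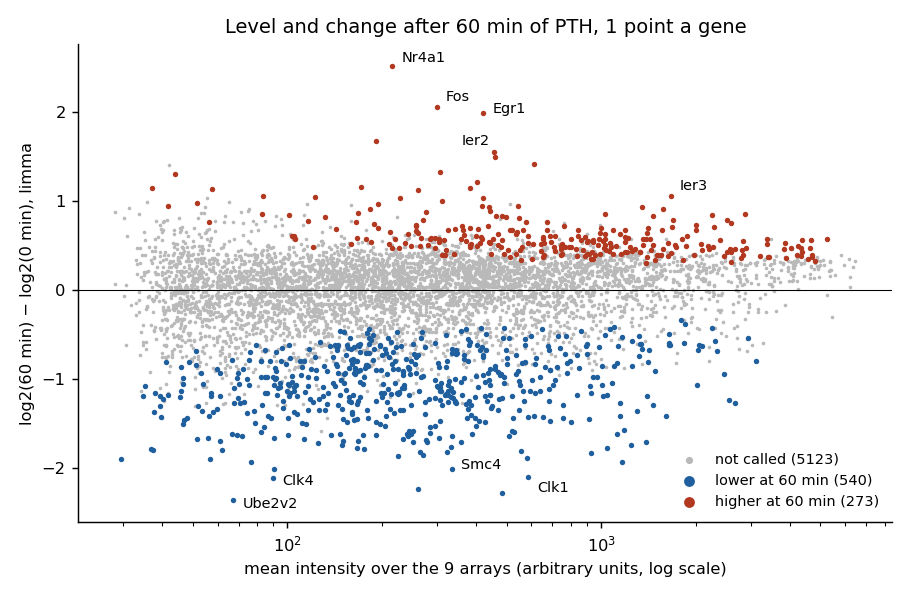
Change against level for the 5936 genes tested. The horizontal axis is the mean intensity over the 9 arrays (log scale, arbitrary units) and the vertical axis the limma log2 change from 0 to 60 min. The 273 genes called higher (red) lie mainly to the right of the 540 called lower (blue), and Nr4a1 and Fos stand highest.

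The calls rested heavily on the arrays at 0 min. Without 0 min replicate a, 25 genes were higher and 35 lower. With 0 min replicate b removed the counts were 30 and 57, and with 0 min replicate c removed 57 and 154. Leaving out 60 min replicate a raised them to 426 and 810, while leaving out 60 min replicate b gave 128 and 301, and 60 min replicate c 139 and 375. Leaving out 30 min replicate c gave 174 and 371. The calls of 24 higher and 33 lower genes held with each of the 9 arrays removed in turn, a set chosen after its values were seen. These genes also kept their calls under every other constant, filter and scaling tried, and they carry most of the description below.

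The labelled cell type was set against its markers, and 9 of the 10 osteoblast markers on the array lay above the filter at 0 min, with Col1a2 at 5386, Postn at 3900, Col1a1 at 3809 and Sparc at 3389. At 60 min 7 of the 10 lay above it, with Ibsp and Cdh11 below it as well, at changes of -0.80 and -1.07 that were not called. Over all genes 5936 of 8251 passed the filter for testing, which asked for at least 3 of the 9 arrays. The PTH receptor gene Pth1r was below the filter at both times. The summed level of the osteoblast list ran from 18957 to 20199 at 0 min and from 17837 to 19237 at 60 min. None of the 7 endothelial markers passed the filter at either time. Of 7 chondrocyte markers 1 passed at 0 min and none at 60 min. The haematopoietic list had 5 of 12 markers above it at 0 min and 4 at 60 min, with summed levels of 1045 to 1120 and 925 to 1095. Those above it at both times were Ctsk at 599 and then 547, Cd68 at 139 and 117, Laptm5 at 109 and 105, and Csf1r at 83.0 and 57.9, while Ptprc, Itgam, Acp5, Calcr, Cd3e, Lyz2 and Tyrobp were below it at both times. Adipocyte markers numbered 3 of 6 at both times, Lep at 387 and then 452, Fabp4 at 82.5 and 77.0, and Pparg at 73.8 and 65.6. Muscle markers numbered 4 of 9 at both times, but not the same 4, since Tnnc2 lay above the filter only at 0 min and Ckm only at 60 min. Above it at both times were Myod1 at 102 and then 120, Myh4 at 93.8 and 87.4, and Mylpf at 72.3 and 70.8. Ckm, muscle creatine kinase, had a mean of 53.4 at 0 min and 106 at 60 min and was called higher by 0.86 (limma adjusted p = 0.0197), a call that needed every 0 min array (adjusted p otherwise up to 0.0691). The median intensity was 82.31 to 85.92 on the 0 min arrays and 73.06 to 80.25 on the 60 min arrays, while the 99th percentile was 3474 to 3606 against 3852 to 4722. The 60 min replicate b had the lowest median and the highest 99th percentile. Control probe sets of housekeeping transcripts differed in both directions, but the brighter ones, of beta-actin, Gapdh and pyruvate carboxylase, were all higher at 60 min. For beta-actin the 3' probe set was higher at 60 min by 1.05, the middle probe set by 0.40 and the 5' probe set by 0.60. The Gapdh controls were higher by 0.25 to 0.30 and the pyruvate carboxylase controls by 0.29 to 0.58. The transferrin receptor controls, all dim, stood at -0.18 for the 3' probe set, -0.16 for the middle and -0.85 for the 5' probe set. The 18S controls, also dim, stood at 0.04, 0.14 and -0.48 in the same order. The part these array-wide differences had in the results was not tested. In bulk RNA, fewer cells of a type and less RNA per cell cannot be told apart.

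Immediate-early transcription factors had the largest rises. Of 17 tested members of the AP-1, Egr, Nr4a and Ier group, 9 were higher and 0 lower, with a median change of 0.72 against 0.04 over all genes. The calls of 7 of these remained whichever array was left out, and the group had 7 higher genes without any 0 min array.

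Nr4a1 encodes an orphan nuclear receptor induced by cAMP. Its intensity was 65.6, 29.2 and 37.2 on the 0 min arrays and 345, 256 and 295 on the 60 min arrays. All 3 treated arrays lay far above the controls, and the change was 2.52 (SE 0.23, limma adjusted p = 0.000803), a 5.73-fold rise. Fos, a subunit of AP-1, went from 27.5, 30.8 and 34.4 to 220, 160 and 128. The groups did not overlap, and the rise was 4.16-fold, or 2.06 (SE 0.19, limma adjusted p = 0.000803). The 30 min arrays of Fos stood higher still, at 618, 815 and 662. Fos and Dusp1 were the 2 genes called between 30 and 60 min, 0.0337% of those tested. Fos fell by 1.99 over that interval (limma adjusted p = 0.00475). Egr1, a zinc finger transcription factor, read 103, 88.0 and 105 at 0 min and 583, 309 and 425 at 60 min, with no overlap and a change of 1.99 (SE 0.20, limma adjusted p = 0.00116).

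The other members of the group that rose did so by smaller steps. Ier2 read 146, 183 and 149 at 0 min and 509, 474 and 472 at 60 min, a change of 1.55. Junb, an AP-1 subunit, went from 306, 259 and 242 to 725, 841 and 654, by 1.42, and its second probe set changed by 1.37. Fosl1, another Fos family gene, went from 150, 138 and 193 to 471, 337 and 454, by 1.33. In each of these the treated arrays lay above all controls, with limma adjusted p from 0.000803 to 0.00299. Ier3 was bright from the start, at 871, 917 and 804, and reached 2212, 1866 and 1453, by 1.06 (SE 0.16, limma adjusted p = 0.00731). Jund, a further AP-1 subunit, went from 3259, 3341 and 3348 to 4045, 5286 and 4414, a change of 0.46 (limma adjusted p = 0.0299). It was not called once any 0 min array or 60 min replicate b or c was removed (adjusted p up to 0.105), nor under quantile and cyclic loess scaling, where the change was 0.21 and 0.24.

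**Figure D2:**
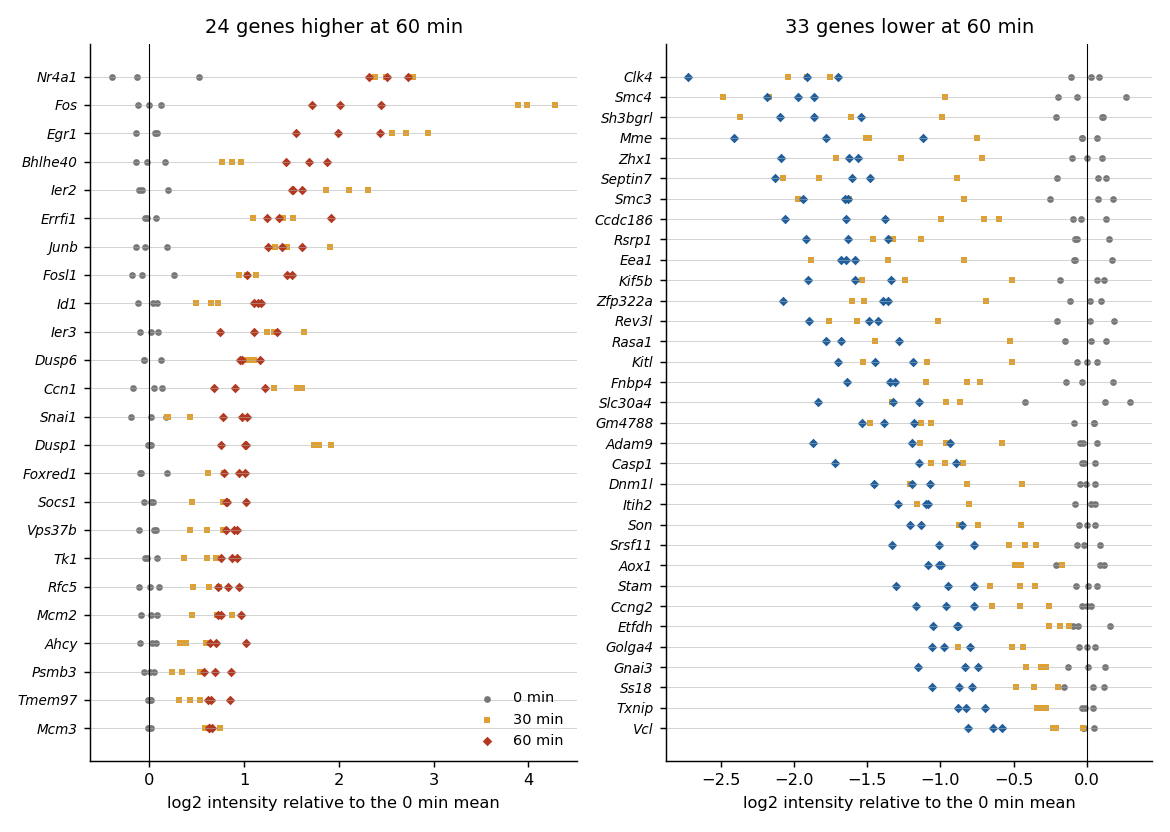
Intensity of the 24 higher (left) and 33 lower (right) genes whose calls remained whichever array was left out. Each point is 1 array, as the log2(intensity + 11.8) difference from the mean at 0 min, for 0 min (grey circles), 30 min (yellow squares) and 60 min (diamonds). As for nearly all called genes, the 60 min arrays of every gene shown lie apart from the 0 min arrays. Fos is the gene with its 30 min arrays furthest beyond its 60 min arrays.

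The promoter sequences of the genes with the largest changes are shown because cAMP-responsive genes are known to carry cAMP response elements. They are the 250 bases before the annotated gene start, from RefSeq on mouse assembly GRCm38.p6, written 5' to 3' on the gene's strand. They belong to the 6 largest rises and 2 largest falls that have an entry in the table used here. Egr1, Bhlhe40, Ier2, Fosl1, Ccn2 and Ube2v2 are not shown. Unc5c was dim, at 11.7, 11.5 and 12.5 at 0 min and 52.2, 59.3 and 31.8 at 60 min, a change of 1.30 (limma adjusted p = 0.0194). Its call needed every 0 min array and 60 min replicate b (adjusted p otherwise up to 0.0711) and was absent with the filter at the median. Avpi1 was higher by 1.16 (limma adjusted p = 0.0113), a call lost without 0 min replicate a (adjusted p = 0.0561). Capitals mark every match, on either strand, to the motifs searched. The cAMP response element was searched as TGACGTCA. Its short core, also counted inside a whole element, was searched as TGACG. An AP-1 site, which binds Fos and Jun proteins, was searched as TGACTCA. The E-box bound by helix-loop-helix factors was searched as CACGTG. The TATA box, which positions RNA polymerase, was searched as TATAAA. The GC box bound by Sp1 was searched as GGGCGG, and the CArG box bound by serum response factor was searched by its usual consensus.
Nr4a1, chr15:101266596-101266845, plus strand: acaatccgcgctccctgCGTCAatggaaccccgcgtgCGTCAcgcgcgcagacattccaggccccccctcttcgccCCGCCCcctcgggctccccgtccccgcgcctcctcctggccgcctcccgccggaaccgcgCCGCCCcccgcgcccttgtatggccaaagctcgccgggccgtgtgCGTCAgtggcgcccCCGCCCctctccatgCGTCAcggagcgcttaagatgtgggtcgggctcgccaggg
Fos, chr12:85473640-85473889, plus strand: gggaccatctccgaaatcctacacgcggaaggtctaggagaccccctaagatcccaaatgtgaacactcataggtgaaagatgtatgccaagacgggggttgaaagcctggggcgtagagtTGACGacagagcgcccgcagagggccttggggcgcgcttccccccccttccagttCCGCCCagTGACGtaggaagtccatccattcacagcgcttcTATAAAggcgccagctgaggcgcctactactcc
Errfi1, chr4:150854820-150855069, plus strand: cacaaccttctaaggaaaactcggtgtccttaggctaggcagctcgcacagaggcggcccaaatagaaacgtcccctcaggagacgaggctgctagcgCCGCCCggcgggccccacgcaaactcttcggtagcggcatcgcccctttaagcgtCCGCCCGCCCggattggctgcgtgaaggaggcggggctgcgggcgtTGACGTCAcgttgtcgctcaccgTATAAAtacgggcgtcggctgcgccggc
Junb, chr8:84978749-84978998, minus strand: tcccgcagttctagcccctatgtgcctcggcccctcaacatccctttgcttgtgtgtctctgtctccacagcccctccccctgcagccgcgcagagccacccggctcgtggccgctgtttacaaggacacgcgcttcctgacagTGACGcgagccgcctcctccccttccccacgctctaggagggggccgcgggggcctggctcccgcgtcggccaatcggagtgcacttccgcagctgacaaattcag
Unc5c, chr3:141465314-141465563, plus strand: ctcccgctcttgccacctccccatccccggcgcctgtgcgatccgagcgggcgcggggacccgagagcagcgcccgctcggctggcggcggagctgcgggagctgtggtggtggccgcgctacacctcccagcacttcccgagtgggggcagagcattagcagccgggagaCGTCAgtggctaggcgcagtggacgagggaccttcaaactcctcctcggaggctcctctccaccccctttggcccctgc
Avpi1, chr19:42128994-42129243, minus strand: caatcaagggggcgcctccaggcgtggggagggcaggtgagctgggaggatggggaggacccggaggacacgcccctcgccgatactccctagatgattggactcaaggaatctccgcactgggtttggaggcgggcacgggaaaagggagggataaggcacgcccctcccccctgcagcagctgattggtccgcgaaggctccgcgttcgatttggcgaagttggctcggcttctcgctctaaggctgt
Ifi202b, chr1:173982845-173983094, minus strand: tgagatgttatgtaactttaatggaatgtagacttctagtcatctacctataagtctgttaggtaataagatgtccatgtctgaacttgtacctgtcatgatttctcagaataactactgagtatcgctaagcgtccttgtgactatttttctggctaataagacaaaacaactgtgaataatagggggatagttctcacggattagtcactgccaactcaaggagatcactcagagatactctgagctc
Cops2, chr2:125859083-125859332, minus strand: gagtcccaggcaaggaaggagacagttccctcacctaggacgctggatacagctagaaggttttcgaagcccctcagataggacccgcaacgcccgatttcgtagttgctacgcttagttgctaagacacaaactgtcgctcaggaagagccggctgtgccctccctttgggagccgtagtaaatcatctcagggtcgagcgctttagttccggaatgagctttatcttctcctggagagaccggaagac

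Nr4a1 held 4 short cores and 3 GC boxes, Fos 2 short cores, 1 TATA box and 1 GC box, and Junb and Unc5c 1 short core each. The Errfi1 sequence shown held the whole element, and the other RefSeq promoter of Errfi1 held no match to any of these motifs. No match was found in the sequences of Avpi1, Ifi202b and Cops2. A RefSeq promoter was found for 4804 of the 5936 tested genes, 218 of the higher and 434 of the lower ones. The whole cAMP response element stood in a promoter of 14 higher genes (6.42%), 14 lower genes (3.23%) and 2.87% of all tested genes. The short core stood in 38.1% of higher, 32.9% of lower and 31.2% of all tested genes, and an AP-1 site in 5.5%, 3.69% and 4.33%. Higher genes with the whole element included Errfi1, Slc25a25, Epha2, Dusp1, Ldha, Mdh2, Tubb2a and Btg2, and the lower ones Clk4, Atad2b, Dhx36, Rab5a and Mitf. Median GC content was 59.6% for higher, 62.2% for lower and 60.0% for all tested genes. These shares describe letters in a fixed window and were not tested.

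Of 22 feedback regulators of growth factor and cytokine signalling tested, 5 were higher and 1 lower, 22.7% and 4.55% against 4.6% and 9.1% of all genes. Their median change was 0.17, with 7 of the 22 below 0, and 4 of the 5 calls remained whichever array was left out. Errfi1, an inhibitor of the EGF receptor, read 219, 204 and 201 at 0 min and 817, 507 and 553 at 60 min. The groups were far apart, with a 2.84-fold rise (SE 0.18 on the log2 scale, limma adjusted p = 0.00296), and a second Errfi1 probe set changed by 1.69. Dusp6, a phosphatase that acts on ERK, went from 230, 262 and 230 to 552, 477 and 484, by 1.03 (SE 0.11, limma adjusted p = 0.00166). Dusp1, which dephosphorylates MAP kinases, went from 614, 623 and 632 to 1273, 1264 and 1062, by 0.93 (SE 0.10, limma adjusted p = 0.00209). Its 30 min arrays had stood at 2189, 2097 and 2377, and it fell by 0.88 between 30 and 60 min (limma adjusted p = 0.018). Socs1, a suppressor of cytokine signalling, went from 185, 188 and 174 to 327, 380 and 331, by 0.88. Spred2, an inhibitor of Ras signalling, fell by 0.46 (limma adjusted p = 0.0431), a call that failed once any of 7 arrays was removed (each 0 min array and replicates b and c of both later times), with an adjusted p up to 0.14, and under quantile, cyclic loess and 75th percentile scaling.

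Helix-loop-helix and C/EBP factors were also among the rises. Of 18 tested, 5 were higher and 2 lower, with a median of 0.23. Bhlhe40, a repressor that is also part of the circadian clock, read 79.8, 87.9 and 102 at 0 min, 160, 186 and 173 at 30 min, and 359, 314 and 263 at 60 min. Its 3 times did not overlap, and the change at 60 min was 1.67 (SE 0.15, limma adjusted p = 0.000803). Id1, an inhibitor of helix-loop-helix factors, went from 243, 217 and 250 to 523, 536 and 551, by 1.15 (SE 0.11, limma adjusted p = 0.00103). The related Id3 went from 1003, 1011 and 1300 to 1828, 2404 and 2023, by 0.91, and Cebpd, a C/EBP factor, from 1839, 2030 and 2034 to 3061, 4448 and 3322, by 0.85. Id3 and Cebpd were no longer called once 0 min replicate a or b was removed, at adjusted p up to 0.0668 and 0.0671. The E proteins Tcf4 and Tcf12, the partners that Id proteins bind, fell by 1.42 and 0.90. Both calls needed every 0 min array, and that of Tcf12 also 30 min replicate c and 60 min replicates b and c, with adjusted p otherwise up to 0.0832 for Tcf4 and 0.123 for Tcf12. Snai1, a transcriptional repressor of the Snail family, went from 360, 275 and 321 to 658, 635 and 551, by 0.93 (SE 0.13, limma adjusted p = 0.00693). Its 30 min arrays, at 363, 365 and 429, lay nearer to the controls.

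Other transcription factor groups held fewer calls. Their shares are set against 4.6% higher and 9.1% lower over all genes. The Klf, Myc, Atf, Gadd45 and Btg group had 4 of 36 higher and 2 lower, 11.1% and 5.56%. Among them Phlda1 was higher by 1.03 and the stress-induced Ddit4 by 0.61. Phlda1 lost its call without 0 min replicate b (adjusted p = 0.0584) and Ddit4 without any 0 min array (up to 0.0779). Homeobox, Sox, Fox and related genes had 3 of 78 higher and 1 lower, 3.85% and 1.28%, both under the shares of all genes. Msx2 and Dlx5, homeobox genes of osteoblast differentiation, were higher by 0.74 and 0.52. The NF-kappaB group had 3 of 18 higher and 1 lower, 16.7% and 5.56%. The subunit Rela was higher by 0.43 and the inhibitors Nfkbia by 0.48 and Nfkbib by 0.54, while a second Nfkbia probe set stood at 0.14. Nuclear receptors and cofactors had 0 of 29 higher and 4 lower, the latter 13.8%. These included the glucocorticoid receptor gene Nr3c1, which fell by 0.81, and Nr1d2, which fell by 1.34. Each homeobox, NF-kappaB and nuclear receptor call named here was lost without 0 min replicate a, and most of them without the other 0 min arrays too, at adjusted p up to 0.127.

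Genes listed for the cAMP pathway itself showed few calls. Of 30 tested, 1 was higher and 1 lower, 3.33% each against 4.6% and 9.1% of all genes, with a median of -0.11. The list did not hold the inhibitory G-protein subunit gene Gnai3, which fell by 0.91 and is described below. The G-protein subunit Gnb2 rose by 0.47 (limma adjusted p = 0.0188), and the anchoring protein gene Akap9 fell by 1.78 (limma adjusted p = 0.0162). Neither was called once any 0 min array was removed, at adjusted p up to 0.0829 and 0.072. The gene of the stimulatory G protein, Gnas, read 3712, 4056 and 4073 at 0 min and 4424, 5753 and 4807 at 60 min, a difference of 0.33 that did not pass (limma adjusted p = 0.0874). The protein kinase A subunit Prkar1a differed by -0.04 (limma adjusted p = 0.833).

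Secreted factors and receptors of bone moved in both directions. Of 28 tested, 1 was higher and 3 were lower, 3.57% and 10.7%, close to the shares of all genes. The decoy receptor for RANK ligand, Tnfrsf11b (osteoprotegerin), read 376, 466 and 453 at 0 min and 237, 107 and 204 at 60 min. Every treated array lay below the controls, and the gene fell by 1.25 (SE 0.25, limma adjusted p = 0.0144). The chemokine gene Cxcl1 went from 3838, 3891 and 3288 to 5364, 4881 and 4973, by 0.47 (limma adjusted p = 0.0173), but by 0.20 and 0.24 under quantile and cyclic loess scaling, where it was not called. The oncostatin M receptor gene Osmr fell by 0.60 and Il13ra1 by 1.10. All 4 calls needed every 0 min array, with adjusted p up to 0.107 otherwise, and that of Il13ra1 also needed 60 min replicates b and c. Csf1, the macrophage growth factor, differed by 0.28 (limma adjusted p = 0.0705), and Ccl2 by 0.01. Among growth factors Hbegf, an EGF receptor ligand, was higher by 0.65 and Fgf7 fell by 1.07, with 24 other tested members not called. Hbegf lost its call without 0 min replicates a or b and Fgf7 without any 0 min array, at adjusted p up to 0.0601 and 0.0668. Kitl, the stem cell factor, read 1549, 1473 and 1402 at 0 min and 639, 445 and 533 at 60 min. It fell by 1.45 (SE 0.22, limma adjusted p = 0.00733) whichever array was left out.

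Of 27 CCN, thrombospondin and tenascin group genes tested, 2 were higher and 1, Postn, was lower. These were 7.41% and 3.7%, against 4.6% and 9.1% of all genes, with a median of -0.07 and 16 of 27 below 0. The higher ones were the matricellular genes Ccn1 and Ccn2. Ccn1 went from 305, 287 and 244 to 531, 453 and 663, by 0.94 (SE 0.16, limma adjusted p = 0.00912), and Ccn2 from 140, 124 and 146 to 414, 210 and 422, by 1.22 (limma adjusted p = 0.0132). The treated arrays of both lay above all controls, and the call of Ccn2 was lost without 0 min replicates a or b, at adjusted p up to 0.0616. Of 40 collagens, collagen processing enzymes and bone matrix proteins tested, 1 was higher and 2 were lower, 2.5% and 5.0%, both under the shares of all genes. The bone proteoglycans Omd and Ogn fell by 1.93 and 1.27. Omd went from 2336, 2006 and 1906 to 546, 423 and 664, and Ogn from 4366, 4223 and 4110 to 1998, 1566 and 1697. Neither gene's times overlapped, but Omd lost its call without 0 min replicates a or b (adjusted p up to 0.0677), Ogn without replicate a (0.0532), and a second Ogn probe set stood at -0.18. Periostin, Postn, fell by 1.23, a call that needed every 0 min array (adjusted p otherwise up to 0.0687). Col1a1 was higher by 0.56 at the edge of the threshold (limma adjusted p = 0.0499), with 1 array at 0 min, 5025, above 1 at 60 min, 4908. Its call failed for 7 of the 9 arrays left out (adjusted p up to 0.17) and under quantile and cyclic loess scaling, where it changed by 0.33. A second Col1a1 probe set differed by 0.08 (limma adjusted p = 0.692). Mme, the cell-surface peptidase neprilysin, went from 1891, 1758 and 1761 to 823, 330 and 516, and fell by 1.77 (SE 0.29, limma adjusted p = 0.00849) whichever array was left out. The sheddase gene Adam9 fell by 1.33, also whichever array was left out.

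Of 46 genes of DNA replication tested, 11 were higher and 1 was lower, 23.9% and 2.17%, with a median change of 0.24 and 16 changes below 0. Tk1, thymidine kinase, read 702, 689 and 755 at 0 min and 1320, 1362 and 1215 at 60 min, with a change of 0.85 (SE 0.11, limma adjusted p = 0.00494). Rfc5, a subunit of the clamp loader, went from 343, 319 and 294 to 531, 623 and 572, by 0.83, and Mcm2, of the replicative helicase, from 375, 348 and 393 to 737, 619 and 637, by 0.81. A second Rfc5 probe set differed by 0.52 and was not called (limma adjusted p = 0.181). Mcm3 had the tightest values, 727, 715 and 710 against 1114, 1114 and 1137, a change of 0.64 (SE 0.09, limma adjusted p = 0.00693), and its second probe set changed by 0.69. These 4 calls remained whichever array was left out. The group had 11 higher genes with 60 min replicate b removed, 5 with 0 min replicate b removed and 4 with 0 min replicate a removed. All 4 genes were also called at 30 min, by 0.56 to 0.68. Mitotic genes were called both ways. Of 58 tested, 5 were higher and 7 lower, 8.62% and 12.1% against 4.6% and 9.1% of all genes. Among them Cdc20 was higher by 0.60, while the condensin gene Smc4 fell by 2.01 and the proliferation marker Mki67 fell by 1.69. Ccng2, a cyclin of cell cycle arrest, had a mean of 364 at 0 min and 182 at 60 min, with no overlap, and fell by 0.96 (SE 0.14, limma adjusted p = 0.00733). Cdc20 lost its call without 0 min replicates a or b (adjusted p up to 0.075), and that of Mki67 needed every 0 min array and 60 min replicates b and c (otherwise up to 0.105).

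The calls of RNA splicing genes differed by role. Core spliceosome proteins were called mainly upward, 11 of 52 higher and 1 lower, with a median of 0.14 and 16 changes below 0. These were 21.2% and 1.92%, against 4.6% and 9.1% of all genes. Under cyclic loess scaling 5 core genes were higher, with a median of 0.12, and under quantile scaling 12. The kinases and SR proteins that regulate splice choice were called mainly downward, 1 of 24 higher and 9 lower, 4.17% and 37.5%. Their median was -0.62, with 7 changes above 0. The hnRNP, Rbm and other nuclear RNA-binding genes had 0 of 62 higher and 18 lower, 29.0%, with a median of -0.37. The SR protein kinase gene Clk4 read 195, 203 and 176 at 0 min and 42.1, 18.9 and 50.6 at 60 min. No array overlapped, and it fell by 2.11 (SE 0.25, limma adjusted p = 0.00296), while a second Clk4 probe set was not called (limma adjusted p = 0.0841). The related Clk1 went from 1492, 1091 and 971 to 305, 167 and 350, and fell by 2.10 (SE 0.34, limma adjusted p = 0.00849), a call lost without 0 min replicate a (adjusted p = 0.051). The SR protein Srsf11 fell by 1.04 and Son, another SR-rich splicing factor, fell by 1.07, and with Clk4 their calls remained whichever array was left out. A second Son probe set stood at -0.24 and was not called (limma adjusted p = 0.363). Hnrnpu, a scaffold RNA-binding protein, ran from 78.8 to 140 over the 0 min arrays and from 21.5 to 34.4 over the 60 min arrays and fell by 1.66 (SE 0.27, limma adjusted p = 0.00849), a call lost without 0 min replicate a (adjusted p = 0.0561). Among the core proteins that rose, Prpf19 was higher by 0.77 and Lsm4 by 0.68, and Lsm4 went from 488, 528 and 510 to 752, 988 and 751. Both calls needed every 0 min array, with adjusted p otherwise up to 0.073. A second Prpf19 probe set stood at -0.21 and was not called (limma adjusted p = 0.711). Without 0 min replicate a, 0 core spliceosome genes were higher, 3 kinase and SR genes lower and 0 hnRNP and Rbm genes lower. With 0 min replicate b removed the counts were 0, 4 and 1, and with 0 min replicate c removed 0, 7 and 7. Leaving out 60 min replicate b gave 3, 8 and 11, and 60 min replicate c 4, 9 and 12.

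**Figure D3:**
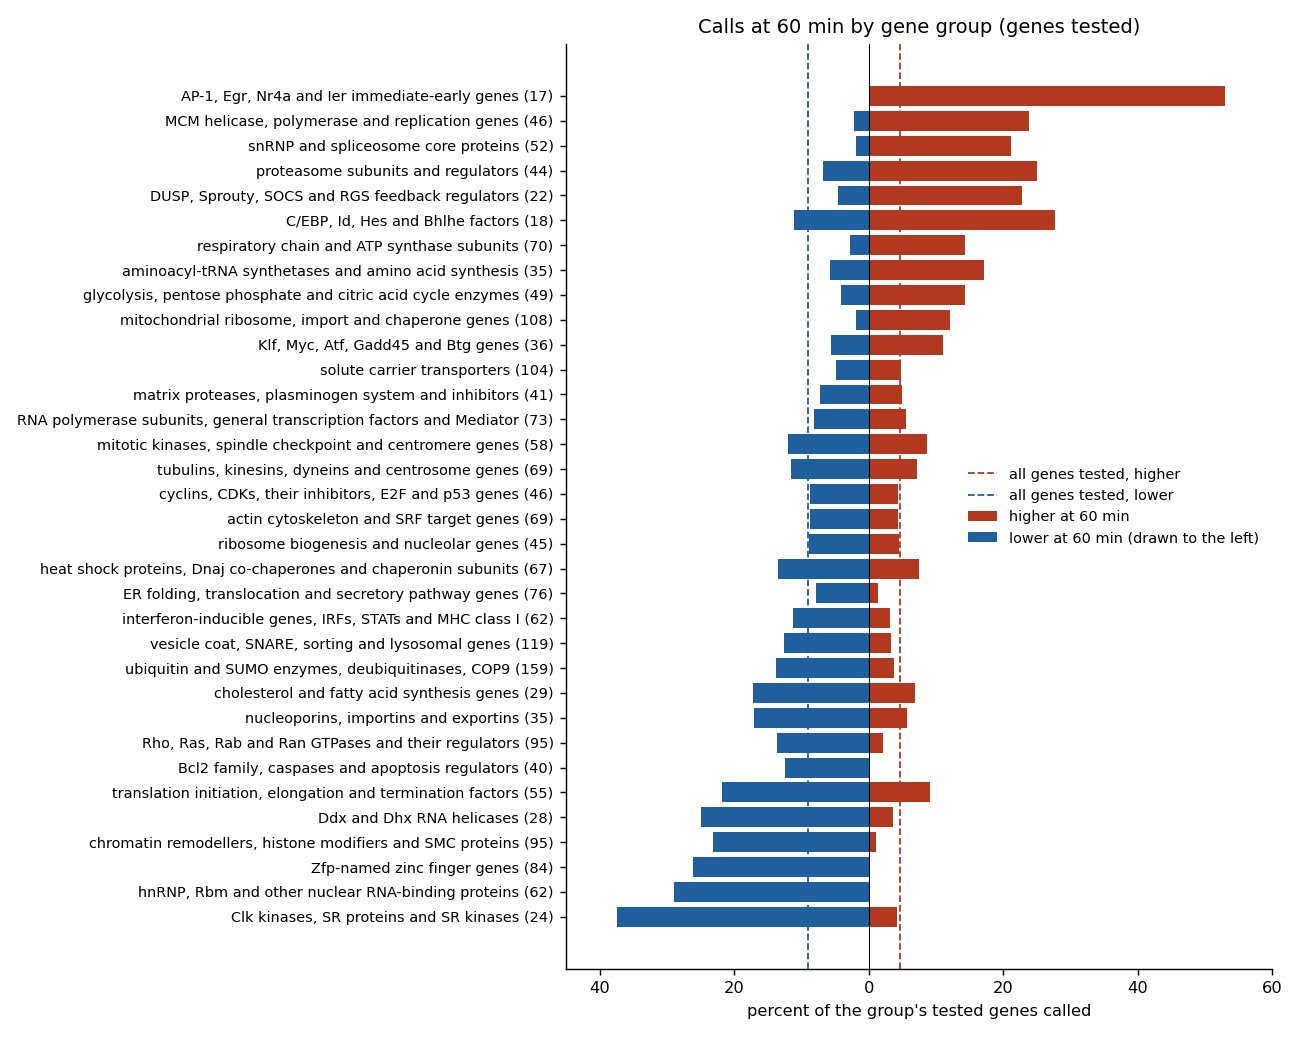
Shares of genes called at 60 min against 0 min in the functional lists with at least 15 genes tested and 5 called, with the number tested in brackets. Bars show the percentage of tested genes called higher (right) and lower (left), and the dashed lines the shares over all genes, 4.6% and 9.1%. The immediate-early list reaches 52.9% higher, and the Clk and SR list 37.5% lower.

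Chromatin and zinc finger genes were called almost entirely downward. Of 95 chromatin genes tested, 1 was higher and 22 were lower, 1.05% and 23.2%, with a median of -0.23. Of 84 Zfp genes 0 were higher and 22 lower, the latter 26.2%, with a median of -0.16. Over all genes 4.6% were higher and 9.1% lower. The cohesin subunit gene Smc3 read 313, 229 and 291 at 0 min and 79.7, 81.0 and 63.2 at 60 min. It fell by 1.74 (SE 0.26, limma adjusted p = 0.00733) with no overlap. Smc4, of condensin, went from 789, 623 and 569 to 171, 135 and 158, and the calls of both remained whichever array was left out. The remodelling ATPase gene Smarca5 fell by 1.86 and topoisomerase Top1 by 1.70, calls lost without 0 min replicates a or b, and for Top1 also c, at adjusted p up to 0.0703. RNA helicases had 1 of 28 higher and 7 lower, among them Dhx36, which fell by 1.33 and lost its call without 0 min replicate a (adjusted p = 0.0561). Without 0 min replicate a, 2 chromatin, 1 Zfp and 0 helicase genes were lower, without b 3, 4 and 2, and without c 8, 9 and 3. Leaving out 60 min replicate b gave 12, 18 and 6, and 60 min replicate c 15, 17 and 6.

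Genes of protein turnover were listed as the proteasome and the ubiquitin system. Of 44 proteasome genes tested 11 were higher and 3 lower, with a median of 0.21. Psmb3, a subunit of the catalytic core, went from 1680, 1802 and 1752 to 2612, 3165 and 2817, by 0.71 (SE 0.11, limma adjusted p = 0.00733), and its call remained whichever array was left out. Psma7 was higher by 0.70, a call lost without 0 min replicates a or b, and the ATPase subunit Psmc6 fell by 1.41, a call that needed every 0 min array and 60 min replicate b, at adjusted p otherwise up to 0.0687 and 0.0907. Of 159 ubiquitin system genes 6 were higher and 22 lower, 3.77% and 13.8%, nearer to the shares of all genes, with a median of -0.13. Ube2v2, a ubiquitin-conjugating enzyme variant, had the largest fall of all, from 151, 130 and 140 to 26.6, 6.4 and 25.4, and fell by 2.36 (SE 0.41, limma adjusted p = 0.0096). The COP9 signalosome gene Cops2 went from 611, 544 and 439 to 146, 86.6 and 86.6 and fell by 2.23, and its second probe set fell by 1.98. Both genes lost the call without 0 min replicate a, at adjusted p of 0.0561 and 0.0547, while the second Cops2 probe set did not. Without 0 min replicates a, b or c in turn, 1, 1 and 2 proteasome genes were higher and 0, 2 and 8 ubiquitin genes lower, and without 60 min replicate b 6 and 14.

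Genes of energy metabolism and of the cytosolic ribosome held more higher than lower calls. Over all genes 4.6% were higher and 9.1% lower. The median of all genes, 0.04, was 0.09 after quantile and 0.04 after cyclic loess scaling. Respiratory chain and ATP synthase genes had 10 of 70 higher and 2 lower, 14.3% and 2.86%. Their median of 0.28 was 0.19 after quantile and 0.15 after cyclic loess scaling. Mitochondrial ribosome, import and chaperone genes had 13 of 108 higher and 2 lower, with a median of 0.20. Uqcrc1, of complex III, went from 1485, 1510 and 1490 to 1950, 2759 and 2238, by 0.61, and lost its call without any 0 min array, at adjusted p up to 0.0687. Cytosolic ribosomal protein genes had 4 of 26 higher, 15.4%, and 0 lower. Their median of 0.28 was 0.10 under quantile scaling, close to that of all genes, and 0.11 under cyclic loess scaling. Their median intensity was 3898, and the control probe sets of beta-actin and Gapdh, also bright, were higher by 0.25 to 1.05. Glycolysis and citric acid cycle enzymes had 7 of 49 higher, among them lactate dehydrogenase Ldha by 0.52, and 2 lower, 14.3% and 4.08%. Under cyclic loess scaling 3 respiratory, 7 mitochondrial, 2 ribosomal and 2 glycolysis group genes were higher. Under quantile scaling the counts were 9, 13, 2 and 5. Leaving out 0 min replicate a or b left 0 higher genes in each of these 4 groups, and without 0 min replicate c the respiratory and mitochondrial groups had 1 each. Removing 60 min replicate a instead gave 18 and 22, and removing 60 min replicate b gave 3 and 0.

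Of 55 translation factors tested, 5 were higher and 12 lower, with a median of -0.05. Their shares, 9.09% and 21.8%, both lay above those of all genes, 4.6% and 9.1%. Eif4a2, an RNA helicase of translation initiation, was bright and fell, from 2257, 2351 and 2040 to 837, 411 and 891, by 1.70 (SE 0.31, limma adjusted p = 0.0116). Its call was lost without 0 min replicates a or b, at adjusted p up to 0.0571. Npm1, a nucleolar chaperone of ribosome assembly, went from 3345, 3406 and 3350 to 2320, 1335 and 1711 and fell by 0.94, a call that needed every 0 min array (otherwise up to 0.0782). In the translation group 0 genes were called without 0 min replicate a or b, and 5 lower without c.

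Over all genes, lower calls outnumbered higher ones, at 9.1% against 4.6%. Vesicle and lysosome genes had 4 of 119 higher and 15 lower, 3.36% and 12.6%, and GTPases and their regulators 2 of 95 higher and 13 lower, 2.11% and 13.7%. Actin cytoskeleton genes, at 3 of 69 higher and 6 lower, 4.35% and 8.7%, were close to the shares of all genes, and microtubule genes had 5 of 69 higher and 8 lower, 7.25% and 11.6%. The lower counts, with each 0 min array removed in turn, were 1, 2 and 3 for the vesicle group and 1 each time for the GTPases. Vps37b, an ESCRT subunit of endosomal sorting, went from 116, 118 and 103 to 205, 219 and 223, by 0.87 (limma adjusted p = 0.00733), and rose whichever array was left out. Rasa1, a Ras GTPase-activating protein, went from 464, 431 and 380 to 167, 115 and 124 and fell by 1.58 (limma adjusted p = 0.00733). Kif5b, a kinesin heavy chain, fell by 1.61, from 450, 434 and 363 to 157, 102 and 130. Vinculin, Vcl, which links actin to adhesion sites, went from 2882, 2742 and 2736 to 1860, 1581 and 1782. Its fall of 0.68 (SE 0.10, limma adjusted p = 0.00693) was the smallest of the 33 kept falls, and its 30 min arrays, at 2371, 2404 and 2732, lay between the other times. The calls of Rasa1, Kif5b and Vcl remained whichever array was left out.

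Of the 33 kept falls, 18 belonged to no list. The largest was Sh3bgrl, from 1857, 1848 and 1481 to 583, 393 and 464, a gene that fell by 1.83, followed by Mme, described above, and Zhx1. Zhx1, a zinc finger and homeobox repressor, fell by 1.76, although a second Zhx1 probe set stood at -0.07. Septin7, a cytoskeletal GTPase, went from 2458, 2372 and 1952 to 733, 504 and 800 and fell by 1.74. Rsrp1, a protein rich in arginine and serine, went from 986, 838 and 846 to 278, 226 and 339 and fell by 1.64 (SE 0.16, limma adjusted p = 0.000803). Rev3l, the catalytic subunit of translesion polymerase zeta, fell by 1.60 and the early endosome tether Eea1 by 1.63. Gnai3, an inhibitory G-protein subunit, went from 1923, 1747 and 2088 to 1069, 855 and 1139 and fell by 0.91 (SE 0.12, limma adjusted p = 0.0059). Txnip, the inhibitor of thioredoxin, was in the redox list and read 986, 1039 and 999 at 0 min, 794, 828 and 816 at 30 min and 542, 617 and 564 at 60 min. Its 3 times did not overlap, and it fell by 0.80 (SE 0.10, limma adjusted p = 0.00296), while a second, dimmer Txnip probe set differed by 0.34 (limma adjusted p = 0.25). Casp1, the inflammatory caspase, fell by 1.26, from 340, 322 and 320 to 171, 90.9 and 141. All of these calls remained whichever array was left out.

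Interferon-inducible and MHC class I genes had 2 of 62 higher and 7 lower, with a median of 0.09. Their shares, 3.23% and 11.3%, stood against 4.6% and 9.1% of all genes. B2m, the light chain of MHC class I, went from 1907, 1978 and 2219 to 3404, 3451 and 3397, by 0.75 (SE 0.14, limma adjusted p = 0.0125). Ifi202b, an interferon-inducible DNA-binding protein, fell by 2.28, from 1082, 937 and 870 to 258, 116 and 222. The calls of B2m and Ifi202b were lost without 0 min replicate a, and that of B2m also without b, at adjusted p up to 0.0668.

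The 30 min arrays share their controls with the 60 min comparison, so values at both times are given side by side only. The kept genes were also chosen by their 60 min values, so a larger distance from 0 min at 60 than at 30 min is partly built in. Of the 24 kept rises 19 were also called at 30 min and 14 stood further from 0 min at 60 than at 30 min. Fos, Egr1, Ier2, Ier3, Ccn1 and Dusp1 stood lower at 60 than at 30 min, while Bhlhe40, Id1 and Snai1 stood higher. Of these differences between 30 and 60 min, those of Fos and Dusp1 passed the test. Of the 33 kept falls 14 were called at 30 min, and all 33 lay further below 0 min at 60 than at 30 min. Among all called genes, 30 of the 273 higher and 29 of the 540 lower were called at 30 min in the same direction. In either set 0 genes were called as moving further that way between 30 and 60 min. Over the 540 lower genes the median array deviation from the 0 min mean fell by 0.37, 0.95 and 0.71 in 30 min replicates a, b and c, and fell by 0.70, 1.42 and 0.90 in 60 min replicates a, b and c. For the 273 higher genes it was 0.23, 0.44 and 0.31, then 0.46, 0.70 and 0.49. Replicate b was furthest from 0 min at both times in both sets of genes. Over all genes the deviations at 60 min were 0.02, 0.09 and 0.02.

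**Figure D4:**
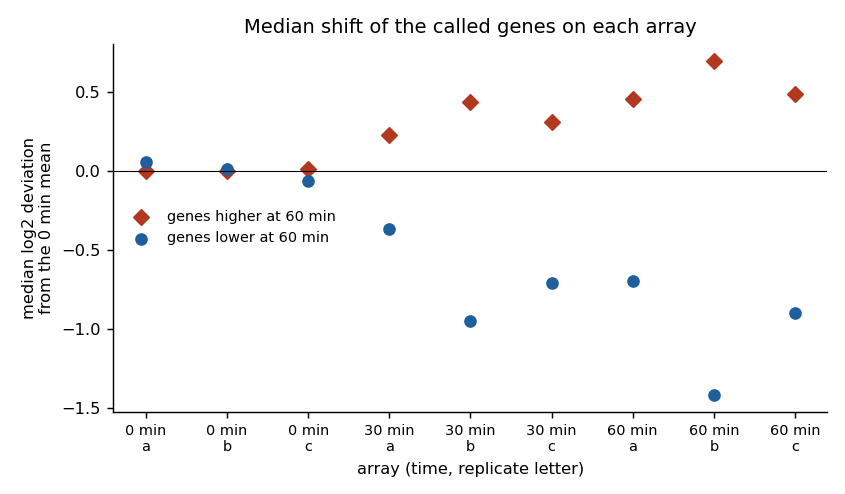
Median deviation from the 0 min mean on each of the 9 arrays, in log2(intensity + 11.8), for the genes called higher (red diamonds) and lower (blue circles) at 60 min against 0 min. The lower genes lie at -0.70, -1.42 and -0.90 on the 60 min arrays, and the higher genes at 0.46, 0.70 and 0.49.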

How the data were processed

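Total RNA of OB-6 cells was measured on 9 arrays with 12488 probe sets, 3 arrays for each time. The authors deposited 1 linear intensity per probe set and array, running from 0.1 to 8605.242. For these intensities, software, background correction and scaling were not given in the sources used here. The trimmed mean was 250.1 to 250.2 on every array.

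The 66 control probe sets were left out. Intensities were transformed as log2(intensity + 11.8), the constant being the 20th percentile, and probe sets with at least 3 arrays above 44.69, the 40th percentile, were kept, which left 7884. A model with 1 mean per time over all 9 arrays was fitted with limma 3.58.1 (R 4.3.3), with a variance trend and Benjamini-Hochberg adjustment over all tested probe sets, and calls were made under 0.05. The steps were tested on simulated data. Python 3.11.15 and matplotlib 3.10.9 were used for tables and figures.

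Symbols came from the platform annotation. A gene was represented by its brightest tested probe set with 1 symbol. Genes were named as the 20 largest rises and falls with no overlap between times, up to 4 called genes per list in each direction, and bright uncalled members of the immediate-early, cAMP and bone factor lists. Genes outside these, among them those whose calls remained whichever array was left out, were chosen after their values were seen. The members, the 50 functional lists and the 6 marker lists were chosen with earlier results of these data known. Promoters were the 250 bases before each start in RefSeq on GRCm38.p6. Alternatives were other constants, filters, scalings, arrays in the fit, no variance trend, a replicate block and each array left out. The number of arrays limits the precision.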

Additional observations from a re-analysis of the deposited data

How the results depend on the processing

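The count of higher genes ran from 25 to 426 and that of lower genes from 35 to 810 when each array was left out in turn. With no filter on low intensity, 171 genes were higher and 346 lower. Cyclic loess scaling gave 178 higher genes and a fit without the variance trend 156. The cause was not tested. The other constants, filters, scalings and the fit on 6 arrays kept both counts within 1.5 times. No named gene that was called changed direction under any alternative run. Among named genes that were not called, Ccl2 went from 0.01 to -0.22 under quantile scaling. Prkar1a went from -0.04 to 0.03 under 75th percentile scaling.

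Replicates carry the same letters at each time. Arrays sharing the letters a, b and c had deviations that correlated at 0.08, -0.06 and -0.13 between 0 and 60 min, at 0.05, 0 and 0.03 between 0 and 30 min, and at 0.30, 0.25 and 0.02 between 30 and 60 min, where a and b correlated at -0.27 and -0.26 across letters. As not every pair passed 0.1, the letters were not taken to pair the arrays, although a and b of the later times deviated together. With the letter as a replicate block, 394 genes were higher and 738 lower, and no named gene lost its call. Dim probe sets limit the size of falls, and the added constant shrinks both rises and falls near it.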
